A study of Arabidopsis thaliana with 9 samples.

Results

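The autophagy genes described here are the probe sets that the array annotation pairs with exactly 1 gene whose symbol, in that annotation or in the RefSeq gene table, is ATG followed by a number. The rule found 8 probe sets, each of a different gene, among the 10343 probe sets tested, of which those paired with 1 gene stand for 5486 genes: ATG3 and the 7 ATG8 genes ATG8B, ATG8C, ATG8D, ATG8E, ATG8F, ATG8G and ATG8H. A further pair of ATG8 genes stands in the table under older symbols, ATG8A as APG8A (AT4G21980) and ATG8I as APG8H (AT3G15580). The older symbol APG8H therefore belongs to ATG8I and not to ATG8H (AT3G06420). This pair lies outside the rule, and its values are given as those of other genes of the pathway.

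Total RNA of whole, wild-type Arabidopsis thaliana seedlings was profiled on 9 Affymetrix arrays in 3 groups of 3. The 0 d seedlings were 4 days old and had grown on Murashige and Skoog (MS) medium. The 2 d and 8 d seedlings were moved at that age to MS medium with the synthetic auxin 2,4-D at 2.26 µM and the cytokinin kinetin at 0.46 µM, a mixture of the kind used to induce callus, and were kept there for 2 or 8 days. Treated seedlings were thus also older, and age cannot be told apart from treatment. By the series' own text the arrays were a hormone comparison for FPX, another inducer of callus; FPX arrays were not analysed here.

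Autophagy carries cytoplasm and organelles to the vacuole for breakdown inside a double-membraned autophagosome. ATG8 is a small ubiquitin-like protein that is joined to phosphatidylethanolamine on the growing membrane, where it binds cargo receptors; the protease ATG4 exposes its C-terminal glycine, ATG7 activates it and ATG3 passes it to the lipid. Arabidopsis has a family of ATG8 genes, of which ATG8H and ATG8I form a clade apart and encode proteins that already end in the glycine. In plants autophagy is known for nutrient recycling during starvation and senescence, and the kinase TOR, which auxin and nutrients activate, represses it.

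The values were probe set signals on a linear scale, with array medians from 445 to 546. An F test over the 3 time points gave a p under 0.05 for 99.8% of the 10343 probe sets, which points to a table kept for change on the very arrays tested. Adjusted p-values are therefore too small, all 8 ATG genes may stand in the table because they varied, and an ATG gene outside it was not analysed here. The labels do not say whether the 3 arrays of a group hold separate cultures; the p-values then cover the spread of these arrays alone, possibly a technical one, and the number of arrays limits the precision. Changes were taken as differences of mean log2 signals, with the standard error (SE) of a limma fit to the 9 arrays, and p-values are adjusted by Benjamini-Hochberg over all 10343 probe sets. A gene was called, and is said to have risen or fallen, at an adjusted p under 0.05 with a log2 change of at least 1 in either direction. A probe set's signal also depends on its probes, so levels are compared within a gene only.

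The ATG8 genes took different courses on the hormones. ATG8H and ATG8E fell at 2 d and at 8 d against 0 d, to 2.48-fold and 2.26-fold lower at 2 d and 4.14-fold and 3.59-fold lower at 8 d. ATG8G rose at 8 d, 2.58-fold higher, and the other 5 ATG genes were not called in any comparison. For 2 d against 0 d, 2 of 8 were called, both lower (14.9% of all probe sets were called in that comparison, 9.75% higher and 5.2% lower). For 8 d against 0 d, 3 of 8 were called, 1 higher and 2 lower (43.5% of all probe sets, 25.4% higher and 18.1% lower). Between 8 d and 2 d, limma called 0 of 8 with 6 of 8 at an unadjusted p under 0.05 (22.1% of all probe sets were called, 7.36% higher and 14.7% lower). Without the fold threshold 7, 7 and 6 of the 8 had an adjusted p under 0.05 in these comparisons, in the order given, as did 63.5%, 90.1% and 76.5% of all probe sets. The arrays of the groups compared did not overlap for 8, 7 and 6 of the 8 genes, and for 70.4%, 91.9% and 78.7% of all probe sets. The median change of the 8 genes was -0.42 at 2 d and -0.35 at 8 d against 0 d, where all probe sets had medians of 0.19 and 0.40. Between 8 d and 2 d it was 0.071, with 0.26 for all probe sets. With so small a set and a table chosen for change, the shares of ATG genes called at 2 d and at 8 d are not a result about them.

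**Figure D1:**
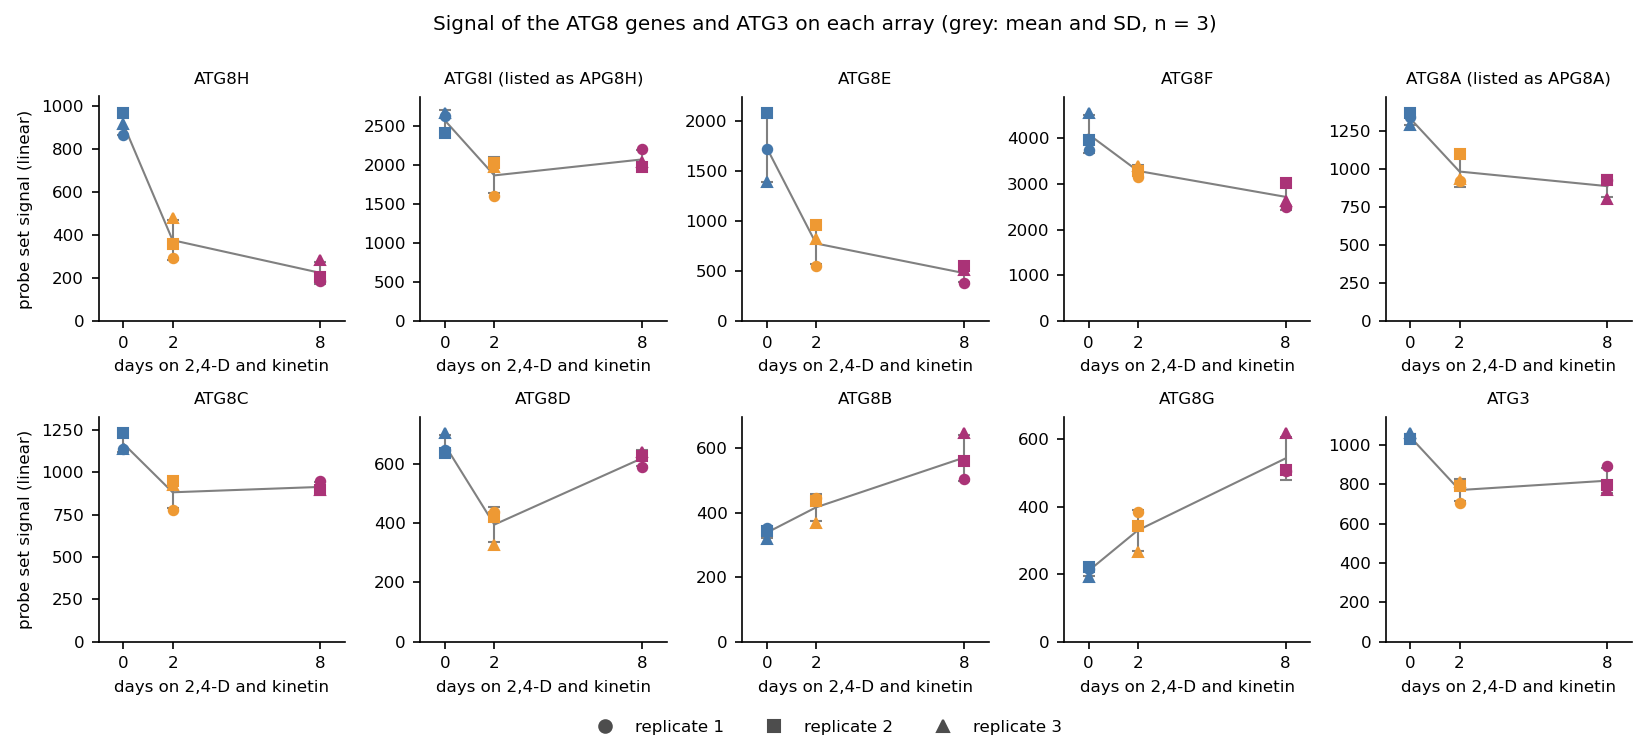
Linear probe set signal (y axis, from 0, with a scale of its own in each panel) of the 9 ATG8 genes and ATG3 against days on 2,4-D and kinetin (x axis); symbols are single arrays, shaped by replicate number, and the grey line joins group means with SD bars (n = 3). ATG8H and ATG8E are lower at 2 d and 8 d than at 0 d, ATG8G and ATG8B are highest at 8 d, and ATG8D is lowest at 2 d.

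ATG8H (AT3G06420, probe set 258880_at), of the clade whose proteins end in the glycine, had the largest change of the 8. Its signals were 869, 968 and 916 at 0 d, then 294, 359.9 and 479 at 2 d, and 187, 206 and 283 at 8 d. Every 2 d array lay below every 0 d array, and every 8 d array below every 2 d array. ATG8H fell by 1.31 at 2 d against 0 d (SE 0.19, limma, adjusted p = 0.00032). A lower change there was seen in 3.17% of all probe sets. By 8 d against 0 d it fell by 2.05 (SE 0.19, limma, adjusted p = 4.7e-06), and 4.43% of probe sets had a lower change. The later step, 8 d against 2 d, was -0.74 (SE 0.19, limma, adjusted p = 0.006), short of the fold threshold, so 63.9% of the log2 change at 8 d was already present at 2 d. The 8 d signals of ATG8H were below the array medians, and whether they lay above background was not determined here. With 64 added to each signal, its change at 8 d against 0 d was -1.78.

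ATG8E (AT2G45170, probe set 266106_at) followed a course like that of ATG8H. It had signals of 1728, 2082 and 1394 at 0 d, then 555, 959.6 and 820.2 at 2 d, and 386, 553 and 509 at 8 d. The 3 groups did not overlap, although the highest 8 d array, at 553, was just under the lowest 2 d array, at 555. ATG8E fell by 1.17 at 2 d against 0 d (SE 0.22, limma, adjusted p = 0.0014) and fell by 1.84 at 8 d against 0 d (SE 0.22, limma, adjusted p = 2.6e-05). The call at 2 d ended without 2 d replicate 1 (-0.95) and after centring on hybridisation controls (-0.94). The later step was -0.67 (SE 0.22, limma, adjusted p = 0.019), short of the fold threshold, with a 95% confidence interval from -1.16 to -0.17. ATG8E was also the noisiest of the 8 at 0 d and at 2 d, with coefficients of variation of 19.8% and 26.4%, whereas ATG8H was at 5.4% and 24.8%.

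ATG8G (AT3G60640, probe set 251393_at) moved the other way and was the single ATG gene called higher. Its signals were 216, 220.5 and 192 at 0 d, then 384, 341 and 264 at 2 d, and 505, 507 and 617 at 8 d. All 3 groups were apart from each other. The gene rose by 1.37 at 8 d against 0 d (SE 0.15, limma, adjusted p = 1.2e-05), while 14.1% of all probe sets had a higher change. At 2 d against 0 d it was at 0.64 (SE 0.15) and at 8 d against 2 d at 0.73 (SE 0.15), both short of the fold threshold, with limma adjusted p-values of 0.0041 and 0.0015. Its 0 d signals were below the array medians, and whether they lay above background was not determined here.

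ATG8B (AT4G04620, probe set 255283_at) had a course of the same shape as ATG8G with smaller steps, and was not called. Its signals were 352, 344 and 318 at 0 d, 445, 437 and 367 at 2 d, and 504, 562 and 646 at 8 d. The groups did not overlap, and the 8 d change against 0 d was 0.75 (SE 0.12, limma, adjusted p = 0.00022), with a 95% confidence interval from 0.48 to 1.02. It was called after centring on hybridisation controls, at 1.03. At 2 d against 0 d it was at 0.30 (SE 0.12, limma, adjusted p = 0.055).

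ATG8D (AT2G05630, probe set 265510_at) had its lowest signals at 2 d and was not called. They were 649, 637 and 703 at 0 d, then 437, 421 and 328 at 2 d, and 591, 626 and 642 at 8 d. The 2 d arrays lay below all others, and the 8 d and 0 d arrays overlapped. The difference was -0.76 at 2 d against 0 d (SE 0.12, limma, adjusted p = 0.00054) and 0.66 at 8 d against 2 d (SE 0.12, limma, adjusted p = 0.00086), neither past the fold threshold. The 8 d difference from 0 d was -0.10 (SE 0.12, limma, adjusted p = 0.46), with a 95% confidence interval from -0.37 to 0.17, and it turned to 0.18 after centring on hybridisation controls.

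ATG8F, ATG8C and ATG3 stood below their 0 d level at both later times by less than the fold threshold. ATG8F (AT4G16520, probe set 245391_at) had signals of 3743, 3948 and 4537 at 0 d, 3155, 3286 and 3395 at 2 d, and 2493, 3025 and 2619.9 at 8 d. Its change was -0.31 at 2 d and -0.59 at 8 d against 0 d (SE 0.11 each, limma, adjusted p = 0.034 and 0.00064). In ATG8F the groups came in the order of time with no overlap.

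ATG8C (AT1G62040, probe set 264285_at) had signals of 1139.6, 1229 and 1139 at 0 d, 776, 946 and 922 at 2 d, and 949.8, 892 and 897 at 8 d. Here the 2 d and 8 d arrays overlapped, and both groups lay below 0 d, at -0.41 and -0.36 (SE 0.10 each, limma, adjusted p = 0.0065 and 0.0081). ATG3 (AT5G61500, probe set 247542_at), the enzyme that passes ATG8 to its lipid, had signals of 1035, 1032 and 1060.0 at 0 d, 707, 794 and 813 at 2 d, and 893, 795 and 771 at 8 d. It took the same course as ATG8C, at -0.44 at 2 d and -0.35 at 8 d against 0 d (SE 0.10 each, limma, adjusted p = 0.004 and 0.0073). Between 8 d and 2 d, ATG8C was at 0.056 and ATG3 at 0.086, with 95% confidence intervals from -0.18 to 0.29 and from -0.14 to 0.31.

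**Figure D2:**
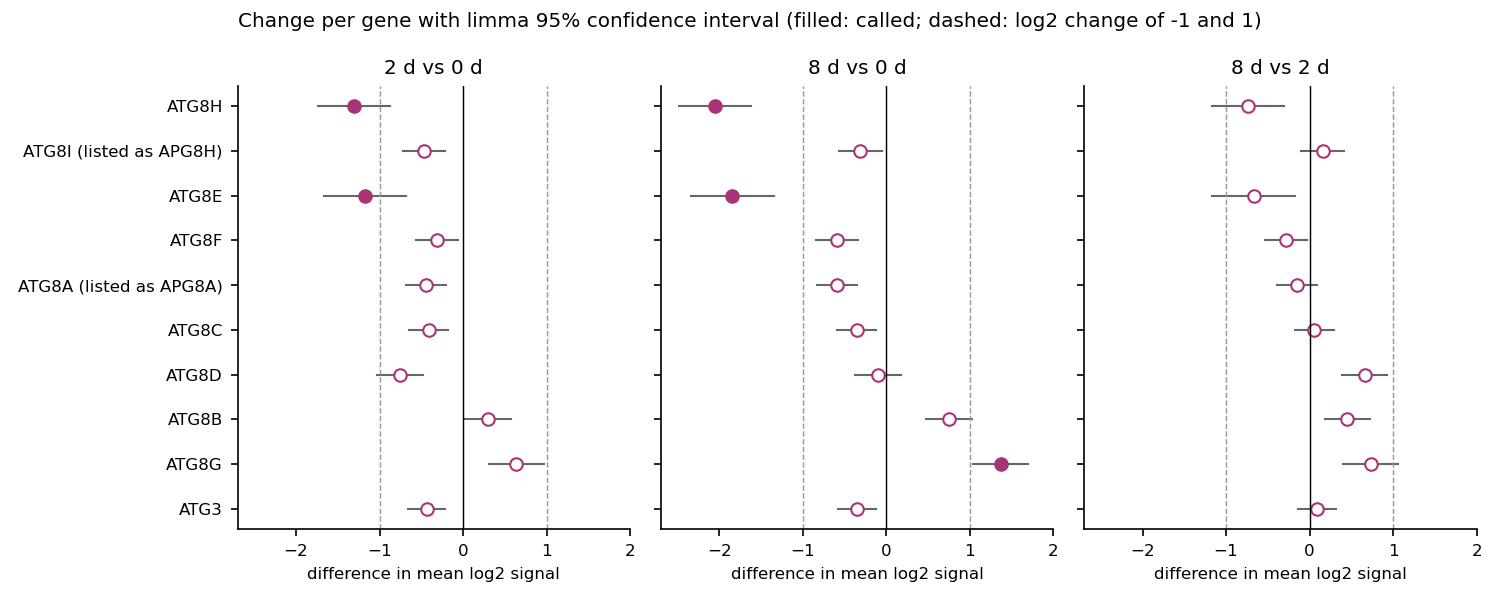
Difference in mean log2 signal (x axis) of the 9 ATG8 genes and ATG3 in the 3 comparisons, each with its 95% confidence interval from limma (3 arrays per group); filled points were called and dashed lines mark log2 changes of -1 and 1. ATG8H and ATG8E are called lower at 2 d and 8 d against 0 d, ATG8G is called higher at 8 d, and none is called at 8 d against 2 d.

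The ATG8 genes outside the symbol rule were not called in any comparison. ATG8A (APG8A, probe set 254346_at) had signals of 1342, 1368 and 1289.5 at 0 d, 920.1, 1099 and 935 at 2 d, and 929, 930.4 and 806 at 8 d. It was at -0.44 at 2 d and -0.59 at 8 d against 0 d (SE 0.11 each, limma, adjusted p = 0.0054 and 0.00048). Centring on hybridisation controls gave -0.21 and -0.31 (limma, adjusted p = 0.19 and 0.05), and median centring -0.62 and -0.86 (limma, adjusted p = 0.0011 and 4.4e-05). ATG8I (APG8H, probe set 257293_at), in the same clade as ATG8H, had signals of 2623, 2412 and 2660.5 at 0 d, 1602, 2017 and 1976 at 2 d, and 2198, 1976 and 2034 at 8 d. Both groups lay below 0 d, at -0.47 and -0.31 (SE 0.11 each, limma, adjusted p = 0.0054 and 0.025), against -1.31 and -2.05 for ATG8H in those comparisons. After centring on hybridisation controls ATG8I was at -0.23 and -0.030 (limma, adjusted p = 0.11 and 0.82), and after quantile normalization its 8 d value was -0.13 (limma, adjusted p = 0.30). Median centring moved ATG8I the other way, to -0.64 and -0.58 (limma, adjusted p = 0.0012 and 0.00097). The 95% confidence interval of 8 d against 2 d ran from -0.10 to 0.41 for ATG8I and from -1.17 to -0.31 for ATG8H. With this pair added, 7 of the 9 ATG8 genes of the locus list had a negative change at 2 d against 0 d. The same number did at 8 d, and ATG8B and ATG8G were the exceptions in both. A change below -0.048 at 2 d was seen in 36.8% of all probe sets, and one below -0.098 at 8 d in 39.4%. These cuts are themselves negative, so the shares with any negative change were larger. A change below 0.021 at 8 d was seen in 41.1%. At 8 d ATG8D was among the 7, and turned to 0.18 after centring on hybridisation controls. In both comparisons 2 of 9 were called lower, and 1 was called higher at 8 d. Of all probe sets, 5.2% were called lower at 2 d, and 18.1% lower and 25.4% higher at 8 d. In so small a set the counts at 2 d and at 8 d are not a result about these genes. Probe sets with this plain suffix are, by the manufacturer's convention, meant for a single gene; cross-binding between these related transcripts was not tested.

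**Figure D3:**
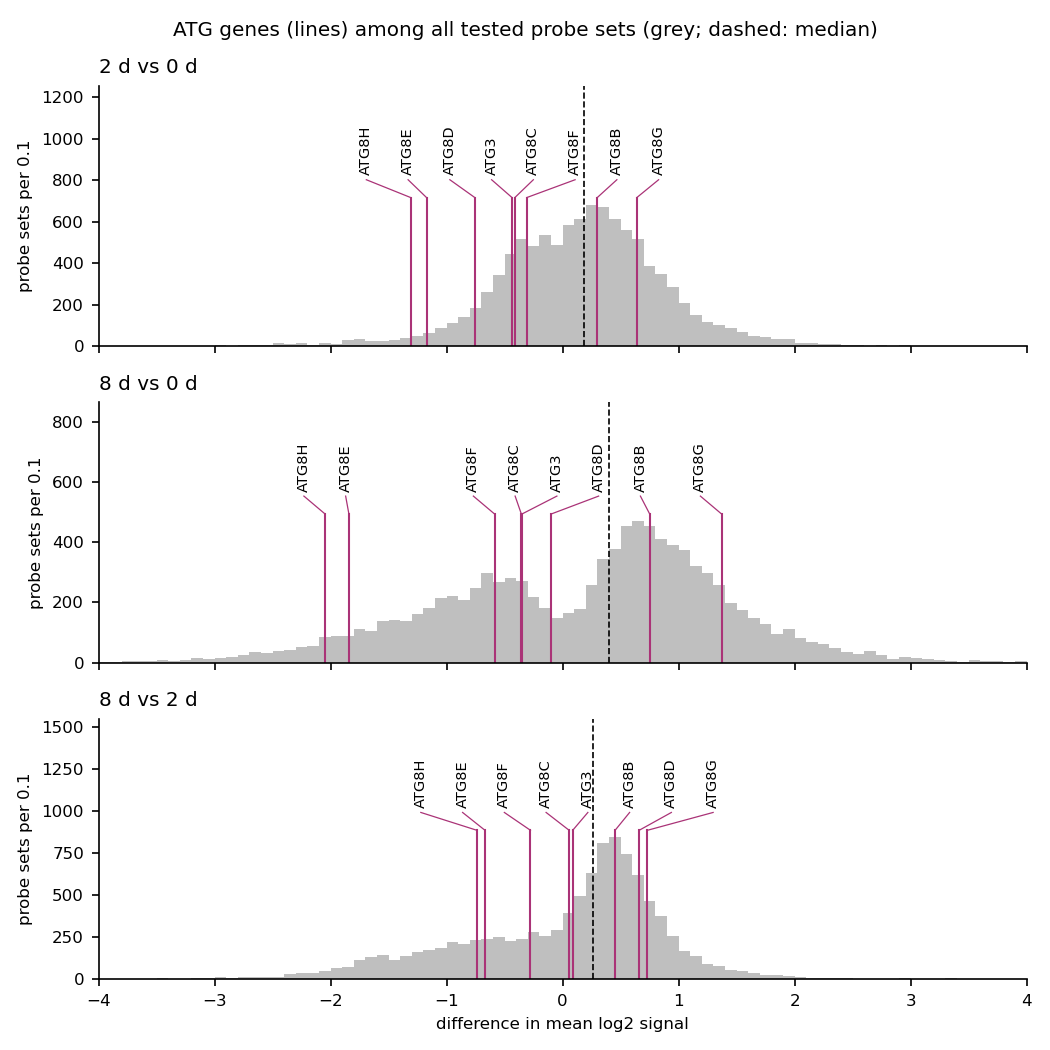
Number of probe sets per 0.1 of difference in mean log2 signal (grey bars, 10343 probe sets in each panel) with the 8 ATG genes as lines and the median of all probe sets dashed; 10 probe sets at 2 d against 0 d, 43 at 8 d against 0 d and 11 at 8 d against 2 d lie beyond the x axis. ATG8H and ATG8E lie in the lower tail in both comparisons with 0 d, and the other ATG genes lie in the body of the distribution.

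At 2 d most ATG genes had the same farthest array. The 2 d replicate 1 array lay farthest from the 0 d mean in 7 of the 8 genes, ATG8D being the exception. That array was the farthest for 48.0% of all probe sets and for 47.2% of those called at 2 d, so it stood out well beyond these genes. At 8 d no array led in this way, with replicate 1 farthest in 4 genes, replicate 2 in 1 and replicate 3 in 3. Across the 9 arrays, as a description of 3 time points with 3 arrays each, Pearson's r of log2 signal was 0.98 between ATG8B and ATG8G, 0.96 between ATG8C and ATG3, and 0.96 between ATG8E and ATG8H. ATG8B and ATG8G had negative r with ATG8C, ATG8E, ATG8F, ATG8H and ATG3. These ran from -0.94 (ATG8G with ATG8F) to -0.67 (ATG8B with ATG8C). For ATG8D, r ran from -0.0079 with ATG8G to 0.58 with ATG3. All these values share the same arrays and the same scaling.

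The genes most like ATG8H over the 9 arrays, among 5520 other probe sets with 1 gene, were TOPP8, BGLU46, AT5G54940, AT5G18150 and GSO1, with Pearson's r from 0.983 to 0.989. TOPP8, a protein phosphatase, was at -0.71 at 2 d and -1.03 at 8 d against 0 d. BGLU46, a beta-glucosidase, was at -1.41 and -2.21 in these comparisons, and GSO1, a receptor kinase, at -1.94 and -3.05. In all, 105 probe sets had an r over 0.95 with ATG8H. For ATG8G they were AT5G66420, AT1G14480, AT5G58090, AT5G16680 and AT1G76810, with r from 0.984 to 0.990, and 339 had an r over 0.95. The changes of these 5 at 8 d against 0 d were between 0.55 (AT5G66420) and 1.80 (AT1G14480).

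Most of the autophagy machinery beyond ATG8 was not analysed here. Of 39 ATG loci in the pathway lists, 11 had a named probe set, and these were the 9 ATG8 genes, ATG3 and AT1G49180, the single measured locus of 8 in the list for the ATG1 kinase complex; the annotation gives that locus no symbol, and it was listed from general knowledge. The lists for ATG9, ATG2 and ATG18 and for the PI3-kinase complex had no measured gene. AT1G49180 had signals of 115, 128 and 134 at 0 d, 181, 153 and 181 at 2 d, and 106, 125 and 120.2 at 8 d. It was highest at 2 d, at 0.45 against 0 d (SE 0.11, limma, adjusted p = 0.007), and was not called. That value was 0.092 after quantile normalization and 0.68 after centring on hybridisation controls (limma, adjusted p = 0.47 and 0.00052). AT5G06830, from the list of receptors and adaptors, was not called either. It was at -0.11 at 2 d and 0.47 at 8 d against 0 d (limma, adjusted p = 0.29 and 0.00067). After quantile normalization these values were -0.45 and 0.034 (limma, adjusted p = 0.0021 and 0.73). Median centring gave -0.29 and 0.19 (limma, adjusted p = 0.019 and 0.066). Centring on hybridisation controls gave 0.12 and 0.75 (limma, adjusted p = 0.38 and 8.1e-05).

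Regulators and vacuolar enzymes were as sparse. RAPTOR1 (RAPTOR1B in the list), the subunit of the TOR complex that recruits its substrates, was the single measured gene of 11 in the list of TOR and SnRK1 regulators. Its signals were 292, 340.2 and 311 at 0 d, 400.4, 350.3 and 404 at 2 d, and 447, 419 and 459 at 8 d. All treated arrays lay above all 0 d arrays, at 0.29 at 2 d and 0.49 at 8 d (SE 0.10 each, limma, adjusted p = 0.032 and 0.0012), short of the fold threshold. Both values were smaller once arrays were quantile-normalized, 0.059 and 0.14 (limma, adjusted p = 0.64 and 0.20), and after median centring 0.12 and 0.22 (limma, adjusted p = 0.33 and 0.065). Centring on hybridisation controls made both larger, 0.525 and 0.77 (limma, adjusted p = 0.0016 and 4.5e-05), so their size depends on the scaling. Of 7 vacuolar proteases 2 were measured. GAMMA-VPE, a vacuolar processing enzyme of vegetative tissue, was at -0.46 at 2 d (SE 0.14, limma, adjusted p = 0.016) and 0.021 at 8 d against 0 d, and was not called. At 2 d it was at -0.22 after centring on hybridisation controls and -0.63 after median centring (limma, adjusted p = 0.20 and 0.0035). ALPHA-VPE is of the same enzyme family. Its signals were 46, 70.2 and 64 at 0 d, 1148, 1217 and 1381 at 2 d, and 324, 450.3 and 200.2 at 8 d. It rose by 4.39 at 2 d and by 2.38 at 8 d against 0 d (SE 0.26 each, limma, adjusted p = 2.3e-06 and 1.3e-05). At 2 d 0% of probe sets had a higher change. ALPHA-VPE then fell by 2.02 at 8 d against 2 d (SE 0.26, limma, adjusted p = 9.4e-05). Whether its low 0 d signals lay above background was not determined here. Of these 5 genes outside the ATG8 and ATG3 set, ALPHA-VPE was the single one called in any comparison.

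Markers of seedling tissues also differed between the groups. The 6 measured genes of 8 in the green tissue list had summed signals from 79371 to 92408 at 0 d, from 71483 to 86224 at 2 d and from 32370 to 42462 at 8 d. By limma 0 of the 6 were called at 2 d, with 0 at an unadjusted p under 0.05. At 8 d against 0 d 4 were called lower, and 6 had an unadjusted p under 0.05. Of all probe sets, 18.1% were called lower in that comparison. The single measured root hair marker of 4, EXPA7, had signals from 410.4 to 606 at 0 d, from 61.6 to 131 at 2 d and from 62.7 to 112 at 8 d, and was called lower at both times, at -2.44 at 2 d. The guard cell lineage list had 2 of 4 measured, FMA and STOMAGEN, and whether STOMAGEN signal came from that lineage was not tested. FMA had signals from 122.1 to 122.4 at 0 d, from 128 to 228 at 2 d and from 43.1 to 77.6 at 8 d. STOMAGEN had signals from 509 to 644, from 263 to 514 and from 9.4 to 56.8 at those times. They were at 0.38 and -0.55 at 2 d against 0 d, in that order, and neither was called. Both were called lower at 8 d against 0 d, at -1.01 (SE 0.24) and -4.40 (SE 0.53). Whether their low 8 d signals lay above background was not determined here. The callus and lateral root list had 1 of 3 measured, LBD16, from 121 to 173 at 0 d, from 291 to 534 at 2 d and from 331 to 671 at 8 d; it was called higher at both times, at 1.41 at 2 d. In whole seedlings, fewer cells of a type and less RNA per cell cannot be told apart, and the part of these shifts in the ATG8 changes was not tested.

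**Figure D4:**
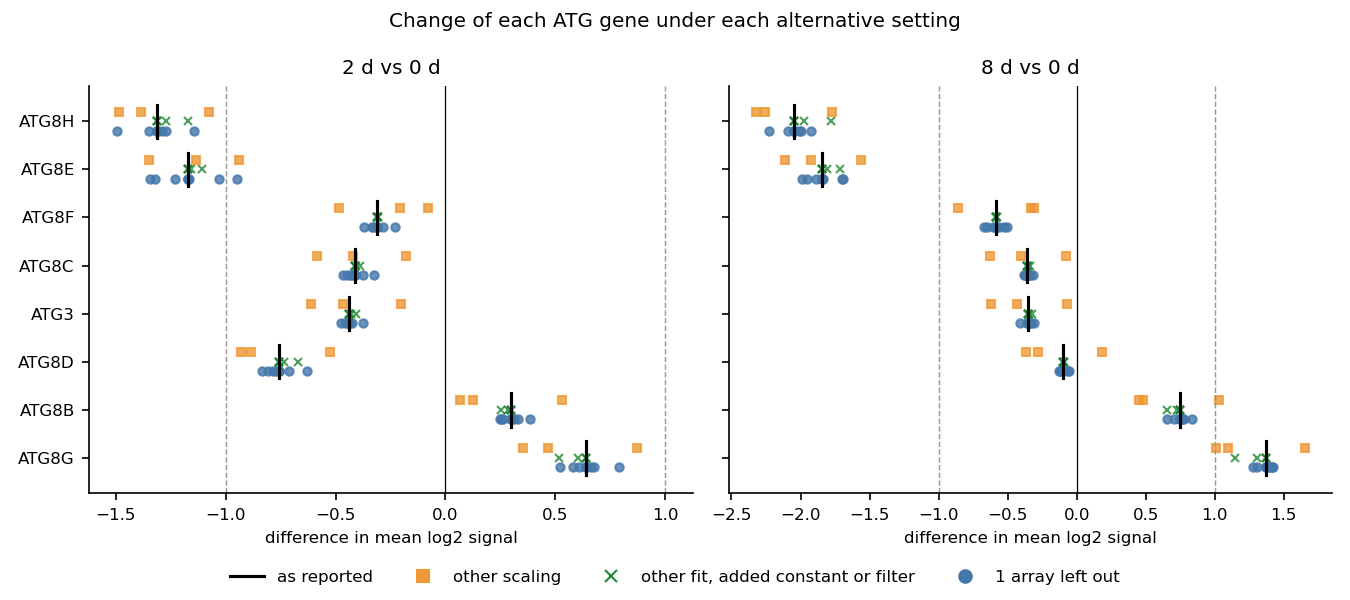
Difference in mean log2 signal (x axis) of the 8 ATG genes at 2 d and 8 d against 0 d as reported (black bar), under 3 other scalings (squares), under other fits, added constants or a filter (crosses) and with 1 array left out (circles); dashed lines mark log2 changes of -1 and 1. ATG8H stays past the threshold in both comparisons under all settings drawn, ATG8E at 2 d falls short of it in 2, and ATG8G at 8 d runs from 1.01 to 1.65.

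The scaling between arrays moved the values of the ATG genes. Against the deposited scaling, the median of all probe sets at 8 d against 0 d shifted by -0.22 after quantile normalization, by -0.27 after median centring and by 0.28 after centring on hybridisation controls. The share of higher calls among all probe sets in that comparison was 58.3% as deposited, 45.8%, 40.5% and 73.8% under those scalings. At 2 d against 0 d it was 65.2% as deposited, and 46.7%, 48.1% and 83.1% under them. ATG8H ranged from -2.32 to -1.77 at 8 d against 0 d over all alternatives, ATG8E from -2.12 to -1.56, and ATG8G from 1.01 to 1.65. ATG8C and ATG3 ranged from -0.63 to -0.076 and from -0.62 to -0.070, with limma adjusted p-values up to 0.55 and 0.57, so their level at 8 d relative to 0 d depends on the scaling. For 2 d against 0 d the highest limma adjusted p over the alternatives was 0.68 for ATG8B, at 0.066 after quantile normalization. It was 0.60 for ATG8F, 0.20 for ATG8C, 0.13 for ATG3 and 0.076 for ATG8G.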

How the data were processed

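The deposited values are linear intensity signals per probe set, made with MAS5 per the submitters' processing notes; no source used here states its version, its scaling target or how probe sets were kept. The 23 control probe sets were left out of the tests. The deposited signals, of which 0 lay below 1, were log2-transformed without rescaling. The lmFit and eBayes functions of limma 3.58.1 (R 4.3.3) fitted a mean for each time point over all 9 arrays and 10343 probe sets, and p-values were two-sided. The fit was tested on simulated data. Gene names came from the array annotation, updated by RefSeq's TAIR10.1 gene table, which held all 8 ATG genes. Replicate numbers were not paired. The members and lists were chosen with earlier results of these data known. All ATG genes are named, with every measured gene of the pathway lists and, for the largest rise and the largest fall, the 5 genes with the highest Pearson's r. Alternatives were 3 scalings, adding 16 or 64, a robust, trended prior, dropping the 40% of probe sets with the lowest mean, separate fits for each pair of groups, a replicate block, other thresholds and leaving out each array. Promoter motifs fixed for a search were not searched, since promoter sequences were not used here.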

Additional observations from a re-analysis of the deposited data

How the results depend on the processing

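At 2 d against 0 d, 2 ATG genes were called; this became 1 after centring on hybridisation controls, 4 with a fold threshold of 1.5 and 7 with no fold threshold, and 1 to 2 when each array was left out, the 1 being without 2 d replicate 1, where ATG8E was at -0.95. At 8 d against 0 d, 3 were called, 5 with a fold threshold of 1.5 and 7 with none, and 3 to 3 with an array left out. At 8 d against 2 d, 0 were called, 4 with a fold threshold of 1.5 and 6 with none, and 0 to 0 with an array left out. Every other alternative kept these counts within 1.5 times. Leaving out the dimmest 40% removed ATG8G from the test and left 2 calls at 8 d. No consistent pairing of arrays by replicate number was seen. Same-numbered arrays had correlations of deviations from -0.09 to 0.23, and 3 of 9 arrays correlated best with their own number. The highest, 0.23 and 0.17, were those of replicates 1 and 3 between 8 d and 2 d, so the check does not settle whether arrays were paired. With the replicate block the counts were 2, 3 and 0. Over the single ATG genes, 447 values kept direction and call, 24 became called (1 by a scaling, the rest by a lower threshold), 2 lost the call and 4 changed sign. The sign changes were ATG8C at 8 d against 2 d, -0.043 after median centring and from -0.033 (without 2 d replicate 1) to 0.11 with an array left out, ATG3 there, -0.013 after median centring, and ATG8D at 8 d against 0 d, 0.18 after centring on hybridisation controls. Among other listed genes, centring on hybridisation controls turned AT1G49180 at 8 d against 0 d to 0.17 and AT5G06830 at 2 d against 0 d to 0.12. GAMMA-VPE at 8 d against 0 d turned to -0.25 after median centring, and ranged from -0.073 to 0.12 with an array left out. None of these values was called, and the cause was not tested.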
